A study of Mus musculus with 6 samples.

Results

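Complex I of the respiratory chain was followed through the transcripts of 42 genes, which are all the measured genes whose symbol is Ndufa, Ndufb, Ndufc, Ndufs or Ndufv with a number, or Ndufaf with a number. They were found among 19937 genes, each read from its brightest probe set over the 6 arrays, and the 42 genes had 46 probe sets of their own. Of the 42, 33 encode subunits of complex I, 7 encode assembly factors (Ndufaf genes), and Ndufa4 and Ndufa4l2 carry the family name but are described apart. Ndufb1, Ndufb4 and Ndufaf8 had no probe set annotated to them alone and were not analysed here. The rule that picks the genes rests on names alone and uses no measured value, although it was set with earlier results of these data known.

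The samples were granulocytes of C57BL/6J mice, 3 arrays labelled caffeine+ and 3 labelled caffeine-. Nothing used here states the age or sex of the mice, the tissue the cells came from or whether replicates were separate animals or cultures. The p-values therefore set the differences against array-to-array spread that may be only technical. The protocol describes 15 mM caffeine for 4 hours, 2 washes, and then 4 hours in 2 µg/ml actinomycin D, which blocks transcription, with caffeine in the caffeine+ plate and without it in the caffeine- plate. Both groups therefore share the actinomycin D and, read literally, the first caffeine exposure, although the labels call the caffeine- cells untreated with caffeine. Caffeine served to inhibit nonsense-mediated decay, the pathway that removes transcripts with premature stop codons, and the question was which RNAs then accumulate.

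Complex I (NADH:ubiquinone oxidoreductase) takes electrons from NADH, passes them along iron-sulphur clusters to ubiquinone and pumps protons across the inner mitochondrial membrane. It is L-shaped. The matrix arm holds the N module, where NADH is oxidised, and the Q module, where ubiquinone is reduced, and the membrane arm holds the proton pumps, with a proximal part next to the matrix arm and a distal part. A few core subunits carry out catalysis, some of them encoded in the mitochondrial genome, and many accessory subunits surround them. Assembly factors build the modules and leave the finished enzyme. Mature neutrophils are known to hold few mitochondria and to draw their energy mainly from glycolysis, while their precursors are richer in mitochondria.

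Complex I transcripts were mostly lower in the caffeine+ cells, and the membrane arm held most of the falls. Of the 42 genes, 23 fell, 5 rose and 14 did not pass the test (limma, Benjamini-Hochberg adjusted p under 0.05 over all 19937 genes). Over all genes tested, 21.7% were lower and 16.2% higher, against 54.8% lower and 11.9% higher among the complex I genes. The median log2 difference, caffeine+ minus caffeine-, was -0.30 over the 42 genes and -0.04 over all genes. By at least 1.5-fold, 11 complex I genes fell and 3 rose, against backgrounds of 9.63% and 7.88%. The share that rose by that much was near that of all genes, and the 3 genes were all assembly factors. Every caffeine+ array lay below every caffeine- array in 26 of the 42 genes and above in 7, against 26.3% and 19.5% of all genes. Bright probe sets pass the test more often, so the genes above the median level were also tested alone. There 25 of 40 complex I genes were lower and 5 higher (62.5% and 12.5%), against 35.1% and 30.8% of all such genes. The values are relative to the rest of each sample's RNA, and in bulk RNA fewer cells of a type and less RNA per cell cannot be told apart.

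**Figure D1:**
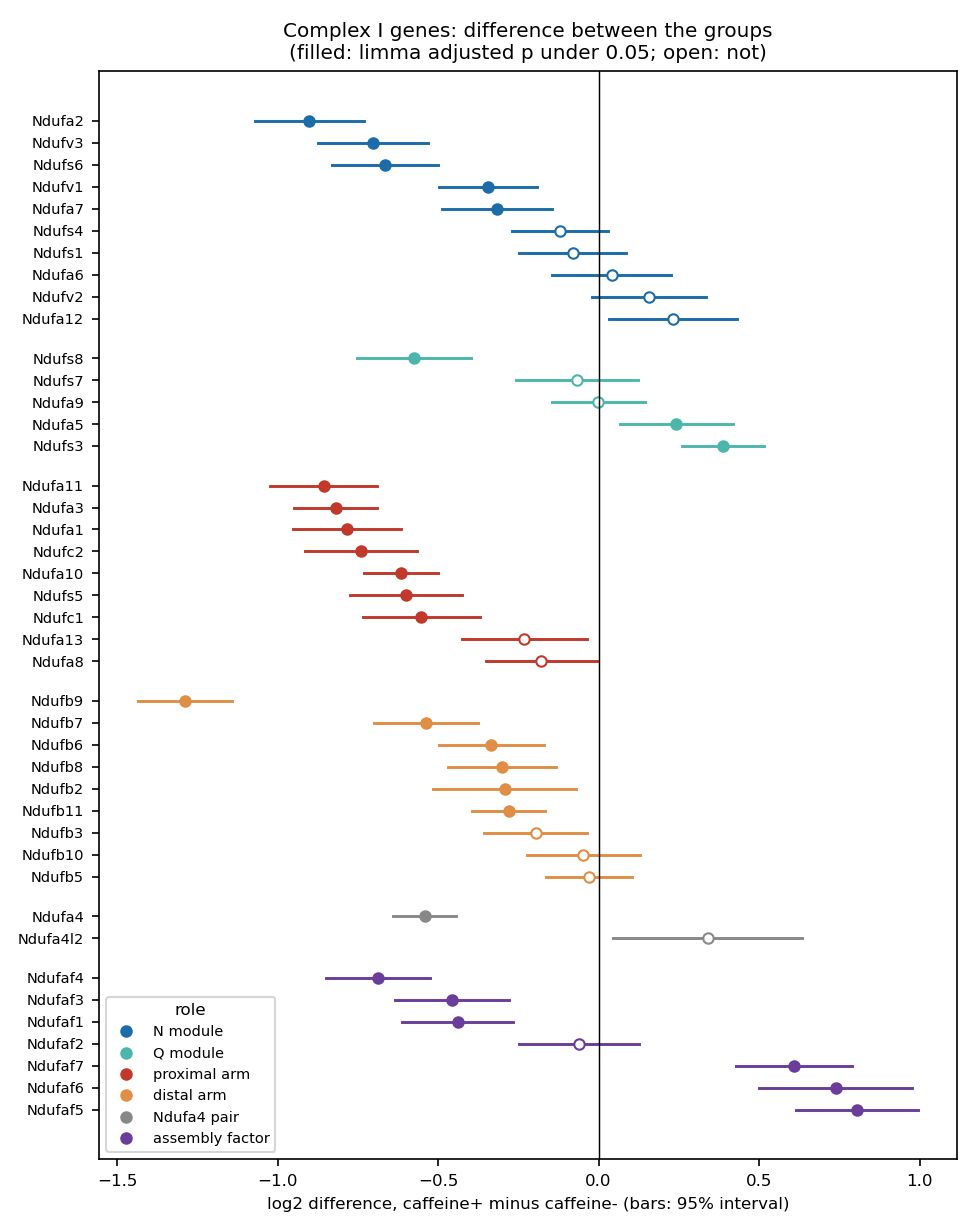
Log2 difference (caffeine+ minus caffeine-) with its 95% interval for each of the 42 genes, ordered by role, with filled points past limma adjusted p 0.05. The 18 membrane arm genes all lie below 0 (Ndufb10 and Ndufb5 lie just above it with arrays centred on their medians), whereas the assembly factors lie on both sides, between -0.69 and 0.81.

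Array medians lay between 6.49 and 6.60, and arrays of one group correlated at 0.986 to 0.992 across probe sets, against 0.959 to 0.965 between groups. Cell markers moved beside the complex I genes. Neutrophil granulocyte markers ranged from dim to bright. Their means ran from 6.20 (Mmp9) to 12.59 (Mpo) in caffeine+ cells and from 6.71 to 12.97 for the same genes in caffeine- cells. Among 16, 15 were called lower (93.8%, against 21.7% of all genes). The list averaged 9.41 to 9.46 on the caffeine+ arrays, against 9.96 to 10.11 on the caffeine- arrays. The monocyte and macrophage list had 5 of 7 lower and 1 higher (list means of 7.52 to 7.53 in caffeine+ and 7.92 to 8.13 in caffeine- cells), and the dendritic cell list 4 of 4 lower (7.01 to 7.04 in caffeine+ and 7.46 to 7.54 in caffeine- cells). Eosinophil, basophil and mast cell markers were lower in 3 of 6 (8.16 to 8.21 in caffeine+ and 8.60 to 8.73 in caffeine- cells). Among 5 proliferation genes, Cdk1 and Top2a were higher (log2 differences of 1.61 and 0.74). Mki67 (-0.14), Mcm2 (-0.16) and Pcna (0.03) did not pass, although in Mki67 and Mcm2 every caffeine+ array lay below every caffeine- array. The means of all 5 were 10.51 to 10.54 in caffeine+ and 10.04 to 10.16 in caffeine- cells. B cell (1 of 4 lower), T and NK cell (1 of 7 lower), erythroid (1 of 3 lower) and megakaryocyte lists (0 of 3) had few calls. The part of these movements in the complex I values was not tested.

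In the proximal membrane arm, next to the joint of the L, 7 of 9 measured genes were lower and none was higher. These shares were 77.8% and 0%, against 21.7% and 16.2% of all genes, and the median was -0.62. All 9 had every caffeine+ array below every caffeine- array, as had 26.3% of all genes. Ndufa11, a membrane-spanning subunit that contacts the other respiratory complexes in supercomplexes, had log2 values of 8.42, 8.40 and 8.63 on the caffeine+ arrays, against 9.35, 9.31 and 9.35 on the caffeine- arrays. It was 1.81-fold lower (log2 difference -0.86 ± 0.08 SE, limma adjusted p = 2.35e-07). Its other probe set gave -0.81 ± 0.07, but RefSeq lists a transcribed pseudogene, Ndufa11b, whose signal these arrays may not separate.

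Ndufa3, a small accessory subunit with a membrane-spanning helix, had 9.26, 9.23 and 9.25 in caffeine+ cells, against 10.08, 10.04 and 10.07 in caffeine- cells, which made it 1.76-fold lower (-0.82 ± 0.06, limma adjusted p = 2.66e-08). The arrays of each group lay close together and the groups far apart. Ndufa1, an X-linked subunit needed for the assembly of the membrane arm, had 8.45, 8.53 and 8.38 in caffeine+ cells, against 9.26, 9.13 and 9.33 in caffeine- cells, and was 1.72-fold lower (-0.78 ± 0.08, limma adjusted p = 6.54e-07). Its span overlaps that of Rnf113a1, so its signal is less certain. Ndufc2 (1.67-fold), Ndufa10, a subunit with a nucleoside kinase fold (1.53-fold), Ndufs5 (1.52-fold) and Ndufc1 (1.47-fold) were lower as well. Ndufa13, also known as the cell death regulator GRIM-19, differed by -0.23 ± 0.09 and Ndufa8 by -0.18 ± 0.08, and neither passed (limma adjusted p = 0.0585 and 0.103). Ndufa13 passed without caffeine- array 2 (-0.30, limma adjusted p = 0.0298) and in 3 of the other alternatives, with a range of adjusted p from 0.0298 to 0.259. Ndufa8 passed after quantile normalization (-0.21, limma adjusted p = 0.0265) and with array weights (-0.21, 0.0471), with a range from 0.0265 to 0.406.

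The distal membrane arm held the largest difference of the 42 genes. Here 6 of 9 genes were lower and none higher (66.7% and 0%, against 21.7% and 16.2% of all genes), and the median was -0.29. Ndufb9, a LYR-motif protein that docks the mitochondrial acyl carrier protein on the distal arm, had 8.91, 8.95 and 8.98 on the caffeine+ arrays, against 10.33, 10.24 and 10.13 on the caffeine- arrays. It was 2.44-fold lower (-1.29 ± 0.07, limma adjusted p = 9.12e-10), and the gap between the groups was more than 1 log2 unit. Ndufa6, the LYR-motif protein that docks the acyl carrier protein on the matrix arm, differed by 0.04 ± 0.09 (limma adjusted p = 0.792). The acyl carrier protein gene itself, Ndufab1, differed by 0.03 ± 0.06.

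Ndufb7, a subunit on the intermembrane space side, had 9.04, 8.91 and 8.97 in caffeine+ cells, against 9.61, 9.38 and 9.54 in caffeine- cells (1.45-fold lower, -0.54 ± 0.08, limma adjusted p = 2.68e-05). Ndufb6 had 8.89, 9.02 and 8.78 in caffeine+ cells, against 9.28, 9.23 and 9.19 in caffeine- cells (1.26-fold lower, -0.33 ± 0.08, limma adjusted p = 0.00218). In both genes the groups did not overlap. Ndufb8 (1.23-fold) and Ndufb11 (1.21-fold) were also lower. The dimmer probe set of Ndufb11 gave -0.12 ± 0.08 and did not pass when every probe set was tested (limma adjusted p = 0.27). The call of Ndufb11 thus rests on its brighter probe set, and whether that one reads Ndufb11 itself was not checked. Ndufb2 was 1.22-fold lower (limma adjusted p = 0.0369), but the call was lost without caffeine+ array 1 (adjusted p = 0.134) or 2 (0.0858), without caffeine- array 1 (0.189) and under 3 of the other alternatives. Its adjusted p ranged from 0.0146 to 0.189 across 16 alternatives. Ndufb3 (-0.20 ± 0.08), Ndufb10 (-0.05 ± 0.08) and Ndufb5 (-0.03 ± 0.06) did not pass, although Ndufb3 passed without caffeine- array 3 (-0.23, limma adjusted p = 0.0241) and in 5 of the other alternatives, with a range of adjusted p from 0.00717 to 0.251. Over both parts of the membrane arm, 13 of 18 genes fell and none rose (72.2% and 0%, against 21.7% and 16.2% of all genes). All 18 differences were negative, as were 11433 of 19937 over all genes. After centring of the arrays on their medians, however, Ndufb10 and Ndufb5 turned slightly positive (0.012 and 0.029).

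**Figure D2:**
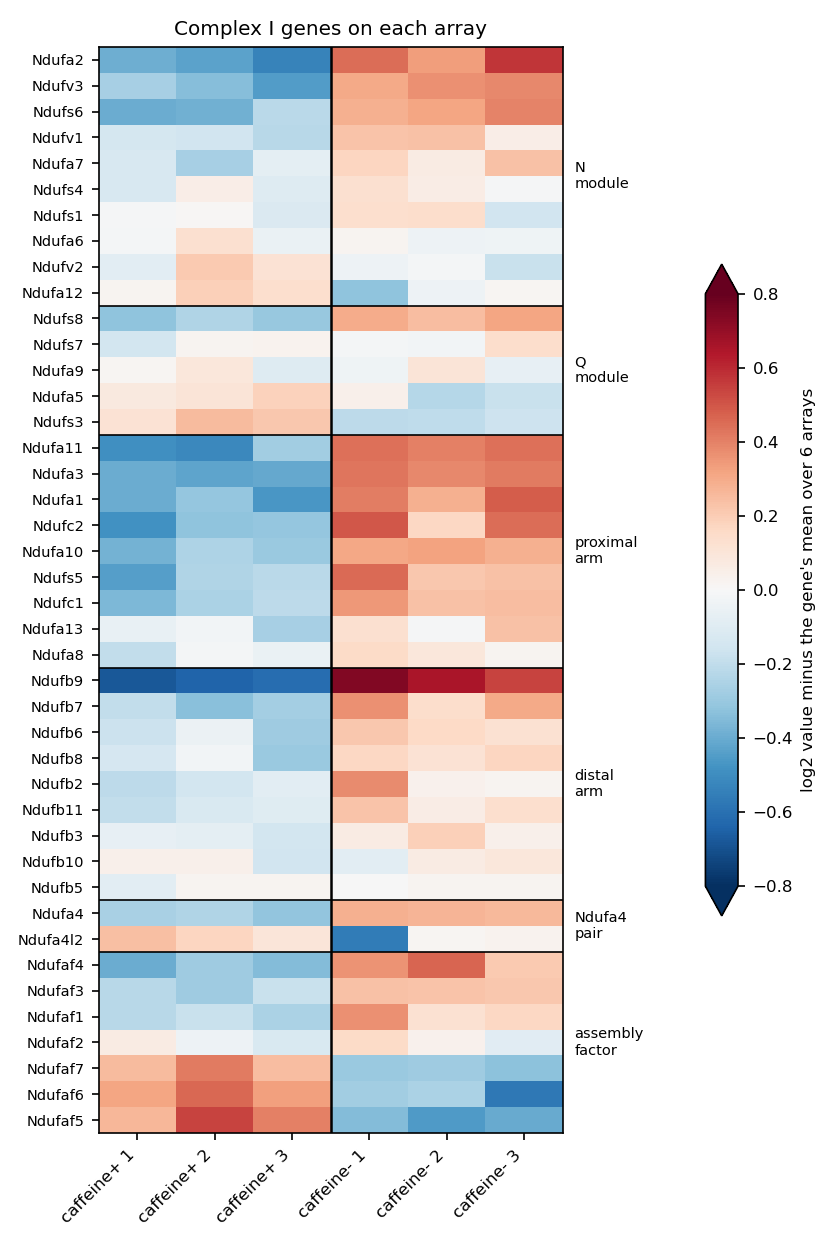
Log2 value of each gene on each array minus that gene's mean over the 6 arrays, with caffeine+ arrays left of the line and genes grouped by role. The proximal arm rows lie below their gene means (blue) on all caffeine+ arrays, only slightly so for Ndufa8 and Ndufa13 on caffeine+ array 2. The last rows, Ndufaf7, Ndufaf6 and Ndufaf5, lie above theirs (red) on all caffeine+ arrays.

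The matrix arm was more mixed, with 6 of 15 genes lower and 2 higher (40% and 13.3%, against 21.7% and 16.2% of all genes). In the N module 5 of 10 were lower and none higher, and the median was -0.22. Ndufa2, an accessory subunit with a thioredoxin-like fold, had 8.50, 8.46 and 8.36 in caffeine+ cells, against 9.33, 9.22 and 9.46 in caffeine- cells, and was 1.87-fold lower (-0.90 ± 0.08, limma adjusted p = 1.72e-07). Ndufv3, an accessory subunit beside the flavin site, had 8.04, 7.97 and 7.86 in caffeine+ cells, against 8.61, 8.68 and 8.69 in caffeine- cells (1.63-fold lower, -0.70 ± 0.08, limma adjusted p = 2.6e-06). Ndufs6, a zinc-binding subunit that joins late in assembly, had 8.42, 8.43 and 8.60 in caffeine+ cells, against 9.10, 9.13 and 9.21 in caffeine- cells (1.59-fold lower, -0.66 ± 0.08, limma adjusted p = 3.27e-06). All 3 had every caffeine+ array below every caffeine- array.

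Among the core subunits of the N module, Ndufv1, which binds the flavin and NADH, was 1.27-fold lower (-0.34 ± 0.07, limma adjusted p = 0.000992). Ndufs1, which carries iron-sulphur clusters, differed by -0.08 ± 0.08 (limma adjusted p = 0.505), with a 95% interval of -0.25 to 0.09. Ndufv2, the partner of Ndufv1, differed by 0.16 ± 0.08 (limma adjusted p = 0.17). Leaving out caffeine- array 3 brought Ndufs1 past the threshold (-0.18, limma adjusted p = 0.0225). Leaving out caffeine+ array 1 brought Ndufv2 past it (0.24, limma adjusted p = 0.0498). Over 16 alternatives the adjusted p ran from 0.0225 to 0.898 for Ndufs1 and from 0.0498 to 0.613 for Ndufv2. Ndufa7 was 1.24-fold lower, while Ndufs4, whose loss in mice gives a model of Leigh syndrome, differed by -0.12 ± 0.07 and did not pass (limma adjusted p = 0.227). After quantile normalization Ndufs4 passed (-0.22, limma adjusted p = 0.00669), and its adjusted p ranged from 0.00669 to 0.63 across 16 alternatives. Ndufa12, which links the N and Q modules, differed by 0.23 ± 0.09 (limma adjusted p = 0.065), with caffeine+ arrays at 8.53, 8.71 and 8.65 and caffeine- arrays at 8.19, 8.47 and 8.53. Without caffeine- array 1 the difference was 0.13 (limma adjusted p = 0.282). It passed without caffeine- array 3 (0.30, limma adjusted p = 0.0151) and in 3 of the other alternatives, and its adjusted p lay between 0.0151 and 0.282 in all 16.

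In the Q module 1 of 5 genes was lower and 2 were higher, with a median of -0.0009. These are 20% and 40%, against 21.7% and 16.2% of all genes, so the share lower was near that of all genes. Ndufs8, a core subunit with iron-sulphur clusters, had 7.28, 7.36 and 7.29 in caffeine+ cells, against 7.90, 7.84 and 7.91 in caffeine- cells, and was 1.49-fold lower (-0.57 ± 0.08, limma adjusted p = 3.36e-05). Ndufs3, a core subunit around which the Q module is first built, went the other way. It had 10.29, 10.43 and 10.39 in caffeine+ cells, against 9.97, 9.97 and 10.01 in caffeine- cells, and was 1.31-fold higher (0.39 ± 0.06, limma adjusted p = 6.25e-05). A dimmer Ndufs3 probe set gave 0.12 ± 0.11 (limma adjusted p = 0.468 with every probe set tested).

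Ndufa5, an accessory subunit bound to Ndufs3, had 8.95, 8.98 and 9.06 in caffeine+ cells, against 8.92, 8.65 and 8.69 in caffeine- cells. It was 1.18-fold higher (0.24 ± 0.08, limma adjusted p = 0.0288), but caffeine- array 1 lay close to the lowest caffeine+ array. Its call was lost without caffeine+ array 1 (0.0547), 2 (0.0677) or 3 (0.116), without caffeine- array 2 (0.125) or 3 (0.0538), after quantile normalization (0.1) and without the intensity trend (0.0665). Its adjusted p ranged from 0.00322 to 0.125 across 16 alternatives. Ndufa9, an accessory subunit of the dehydrogenase/reductase fold at the joint of the arms, showed the smallest difference of the 42. It had 10.27, 10.34 and 10.15 in caffeine+ cells, against 10.22, 10.36 and 10.19 in caffeine- cells, with a 95% interval of the difference from -0.15 to 0.14. Ndufs7, which carries the iron-sulphur cluster next to ubiquinone, differed by -0.07 ± 0.09. Of the 6 measured nuclear core subunits 2 fell and 1 rose (33.3% and 16.7%, against 21.7% and 16.2% of all genes). Of the 27 accessory subunits 17 fell and 1 rose (63% and 3.7%). The difference between core and accessory subunits was not tested.

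Ndufa4, first described as a complex I subunit and now placed with complex IV, had 11.25, 11.27 and 11.20 in caffeine+ cells, against 11.79, 11.79 and 11.77 in caffeine- cells. It was 1.46-fold lower (-0.54 ± 0.05, limma adjusted p = 1.06e-07). Ndufa4l2, its hypoxia-induced paralogue, differed by 0.34 ± 0.14 and did not pass (limma adjusted p = 0.0675). Its caffeine+ arrays read 6.76, 6.70 and 6.62 and its caffeine- arrays 5.97, 6.54 and 6.55, so caffeine- array 1 stood below the others. Without that array the difference was 0.15 (limma adjusted p = 0.361). It passed without caffeine- array 2 (0.43, limma adjusted p = 0.0369) or 3 (0.44, 0.0234) and in 5 of the other alternatives, and its adjusted p lay between 0.0234 and 0.361 in the 15 alternatives that tested it.

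The 7 assembly factors divided evenly, with 3 lower, 3 higher and 1 that did not pass (42.9% in each direction, against 21.7% and 16.2% of all genes). Their median was -0.06 against -0.30 for the 35 genes named as subunits. Among those 35, 20 fell and 2 rose. The difference between the assembly factors and the subunits is given as a description and was not tested.

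Ndufaf5, which hydroxylates an arginine of Ndufs7 and has the fold of a methyltransferase, had 8.25, 8.52 and 8.38 in caffeine+ cells, against 7.63, 7.53 and 7.58 in caffeine- cells. It was 1.75-fold higher (0.81 ± 0.09, limma adjusted p = 1.92e-06). Ndufaf6, a relative of enzymes of isoprenoid synthesis, had 6.54, 6.68 and 6.55 in caffeine+ cells, against 5.94, 5.96 and 5.64 in caffeine- cells (1.67-fold higher, 0.74 ± 0.11, limma adjusted p = 5.02e-05). Ndufaf7, a mitochondrial arginine methyltransferase, had 7.99, 8.15 and 7.98 in caffeine+ cells, against 7.44, 7.45 and 7.41 in caffeine- cells (1.52-fold higher, 0.61 ± 0.09, limma adjusted p = 2.32e-05). In each of these 3 genes every caffeine+ array lay above every caffeine- array.

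Ndufaf4, which works with Ndufaf3 to stabilise the Q module, had 8.95, 9.06 and 9.004 in caffeine+ cells, against 9.71, 9.81 and 9.56 in caffeine- cells, and was 1.61-fold lower (-0.69 ± 0.08, limma adjusted p = 1.86e-06). Its partner Ndufaf3 had 7.32, 7.26 and 7.37 in caffeine+ cells, against 7.78, 7.78 and 7.76 in caffeine- cells, and was 1.37-fold lower (-0.46 ± 0.08, limma adjusted p = 0.000321). Ndufaf1, a member of the MCIA complex that assembles the proximal membrane arm, had 8.41, 8.46 and 8.38 in caffeine+ cells, against 9.01, 8.76 and 8.80 in caffeine- cells, and was 1.36-fold lower (-0.44 ± 0.08, limma adjusted p = 0.000353). Ndufaf2, a paralogue of Ndufa12 that holds its place during assembly, averaged 8.22 ± 0.10 in caffeine+ and 8.28 ± 0.12 in caffeine- cells (SD, n = 3) and differed by -0.06 ± 0.09 (limma adjusted p = 0.679). The 6 calls among the assembly factors were kept under all 16 alternatives, except that Ndufaf6 lies below the median level and was not tested among the brighter genes. In RefSeq the spans of Ndufaf5, Ndufaf4 and Ndufaf2 overlap other genes (Gm52594, Gm46848 and Gm52057), as do those of Ndufa2 (Tmco6), Ndufb11 (Rbm10), Ndufa13 (Tssk6), Ndufs1 (Ino80dos), Ndufv2 (Ankrd12 and Gm23264), Ndufa4l2 (Shmt2), Ndufa10 (Mir6900), Ndufa9 (1700018A23Rik) and Ndufs7 (n-TNgtt7), and Ndufa12 has a pseudogene, Ndufa12-ps. These signals may include RNA of the other gene.

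**Figure D3:**
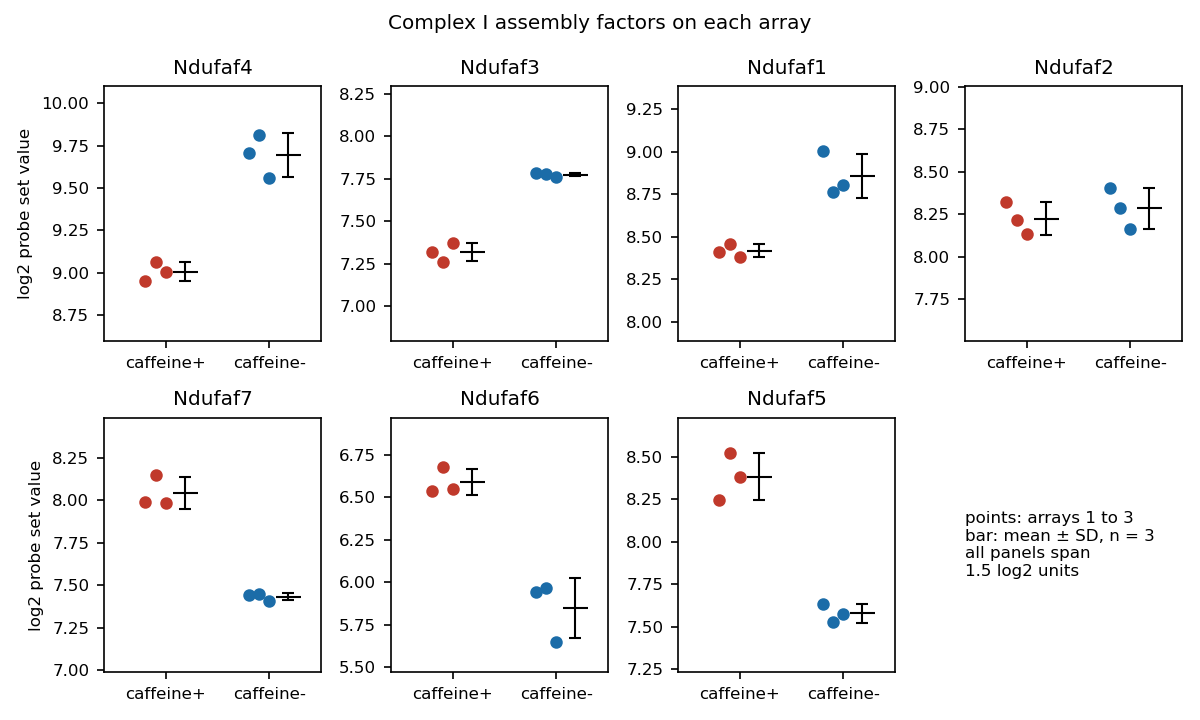
Log2 probe set values of the 7 assembly factors on each array (points) with mean ± SD (n = 3), caffeine+ left and caffeine- right, all panels with the same height in log2 units. Ndufaf4, Ndufaf3 and Ndufaf1 are lower and Ndufaf7, Ndufaf6 and Ndufaf5 higher in caffeine+ cells with no overlap, while the Ndufaf2 arrays overlap.

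Promoter sequences are shown for genes that share a motif near their start site but differ in their response, such as the assembly factors Ndufaf5, which rose, and Ndufaf4, which fell. RefSeq promoter windows (GRCm38.p6, 250 bases before to 50 after a start site) were matched for 37 of the 42 genes, all but Ndufa2, Ndufa4l2, Ndufaf6, Ndufb9 and Ndufs1. Nuclear respiratory factor 1 (NRF1), known as a regulator of respiratory chain genes, binds a palindromic motif. Its letters, in capitals in the sequences given here, read the same on both strands, and it was found in 0.971% of the 32851 promoters of the table and in 3 of the 37 genes, Ndufaf5, Ndufaf4 and Ndufa11. Their log2 differences were 0.81, -0.69 and -0.86. The 200 bases that end 50 bases after the start site are given with the motif in capitals, for Ndufaf5 at chr2:140170496-140170695 (+ strand), Ndufaf4 at chr4:24897933-24898132 (+ strand) and Ndufa11 at chr17:56717612-56717811 (+ strand).
Ndufaf5: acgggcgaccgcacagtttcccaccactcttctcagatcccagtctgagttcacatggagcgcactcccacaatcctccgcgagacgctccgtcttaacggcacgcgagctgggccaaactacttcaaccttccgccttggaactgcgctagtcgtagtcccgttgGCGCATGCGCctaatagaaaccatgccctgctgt
Ndufaf4: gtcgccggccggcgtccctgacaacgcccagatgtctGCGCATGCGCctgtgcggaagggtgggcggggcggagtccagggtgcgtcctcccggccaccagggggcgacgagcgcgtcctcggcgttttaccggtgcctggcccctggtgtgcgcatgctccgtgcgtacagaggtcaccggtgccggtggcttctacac
Ndufa11: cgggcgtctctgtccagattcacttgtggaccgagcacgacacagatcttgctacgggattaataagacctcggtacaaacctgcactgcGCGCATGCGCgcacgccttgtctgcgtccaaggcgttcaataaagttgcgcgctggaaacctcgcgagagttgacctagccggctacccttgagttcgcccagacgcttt
Counted from the start site, the motif begins at position 17 in Ndufaf5, -113 in Ndufaf4 and -60 in Ndufa11.

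Another motif, in capitals in the next sequences, is a known site of the factor YY1 just after the start site of many housekeeping genes. It was found on either strand in 0.633% of all promoters and in 4 of the 37 genes, all of them subunits of the matrix arm. Stretches of 30 bases around it are given with the motif in capitals, for Ndufs6 at chr13:73328433-73328462 (- strand), Ndufs4 at chr13:114388045-114388074 (- strand), Ndufs7 at chr10:80249464-80249493 (+ strand) and Ndufa9 at chr6:126849095-126849124 (- strand).
Ndufs6: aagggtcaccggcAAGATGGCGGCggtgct
Ndufs4: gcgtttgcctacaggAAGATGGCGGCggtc
Ndufs7: gccgaggccAAGATGGCGGCgctggcgggt
Ndufa9: ttgtgggagAAGATGGCGGCcgccgtccgc
In all 4 the motif begins between 25 and 36 bases after the start site. Ndufs6 fell (-0.66), whereas Ndufs4, Ndufs7 and Ndufa9 differed by -0.12, -0.07 and -0.0009 and did not pass, apart from Ndufs4 after quantile normalization (-0.22, limma adjusted p = 0.00669). The cAMP response element TGACGTCA, also its own reverse complement, was in 1.79% of all promoters and in 3 of the 37 genes. These were Ndufa10, Ndufb2 and Ndufa11, and all 3 fell, as did 54.8% of the 42 genes. The call of Ndufb2 was lost in 6 of 16 alternatives. The ETS core CCGGAAG was on either strand in 8.86% of all promoters and in 5 of the 37, of which Ndufs3 rose and Ndufaf1, Ndufb6, Ndufb7 and Ndufs8 fell. A match describes the letters only, and whether transcription differed between the groups, before or during the actinomycin D, was not tested.

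Complex I genes with other names were taken from a separate list. Of 21 such genes listed, 14 were measured, 7 fell and 2 rose, with a median of -0.18. These are 50% and 14.3%, against 21.7% and 16.2% of all genes. The share higher was thus near that of all genes. In the MCIA complex, besides Ndufaf1, the genes Tmem126b (1.82-fold), Tmem186 (1.71-fold) and Ecsit (1.3-fold) were lower, whereas Acad9, an acyl-CoA dehydrogenase that serves in the same complex, was 1.3-fold higher (0.38 ± 0.10, limma adjusted p = 0.00468). Lyrm2, a LYR-motif protein linked to the N module, was 2.27-fold lower (-1.18 ± 0.11, limma adjusted p = 2.18e-07). Its log2 level averaged 7.21 ± 0.23 in caffeine+ and 8.40 ± 0.07 in caffeine- cells (SD, n = 3). The distal arm factor Dmac1 was 1.51-fold lower and Dmac2 1.48-fold higher. Tmem70 was 1.16-fold lower. ND3, the mitochondrially encoded subunit mt-Nd3, was 1.14-fold lower (-0.19 ± 0.04, limma adjusted p = 0.000465). Timmdc1, Aifm1, Nubpl, Foxred1 and Ndufab1 did not pass, and the other mitochondrially encoded subunits were not analysed here.

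Other mitochondrial and ribosomal lists also held many falls in the same fit, in which 21.7% of all genes fell and 16.2% rose. In complexes II to IV and ATP synthase 33 of 47 genes fell and 1 rose, with a median of -0.38. The smallest p-values in it were those of Atp5d (1.74-fold lower), Atp5h (1.67-fold lower) and Atp5mpl (1.76-fold lower), subunits of ATP synthase. Of 77 mitochondrial ribosomal protein genes 40 fell and 13 rose, with a median of -0.23, among them Mrps33 (2.55-fold lower), Mrpl41 (2.29-fold lower) and Mrps30 (2.96-fold higher). Of 61 genes in the cytosolic ribosomal protein list 33 fell and 2 rose, with a smaller median of -0.13. Only 1 fell by at least 1.5-fold, Rpl7l1, whose name marks it as like Rpl7 rather than as a ribosomal protein itself. In that list Rpl7l1 was 2.15-fold lower, Rps21 1.39-fold lower and Rpl12 1.97-fold higher. Whether complex I differed from these lists was not tested.

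**Figure D4:**
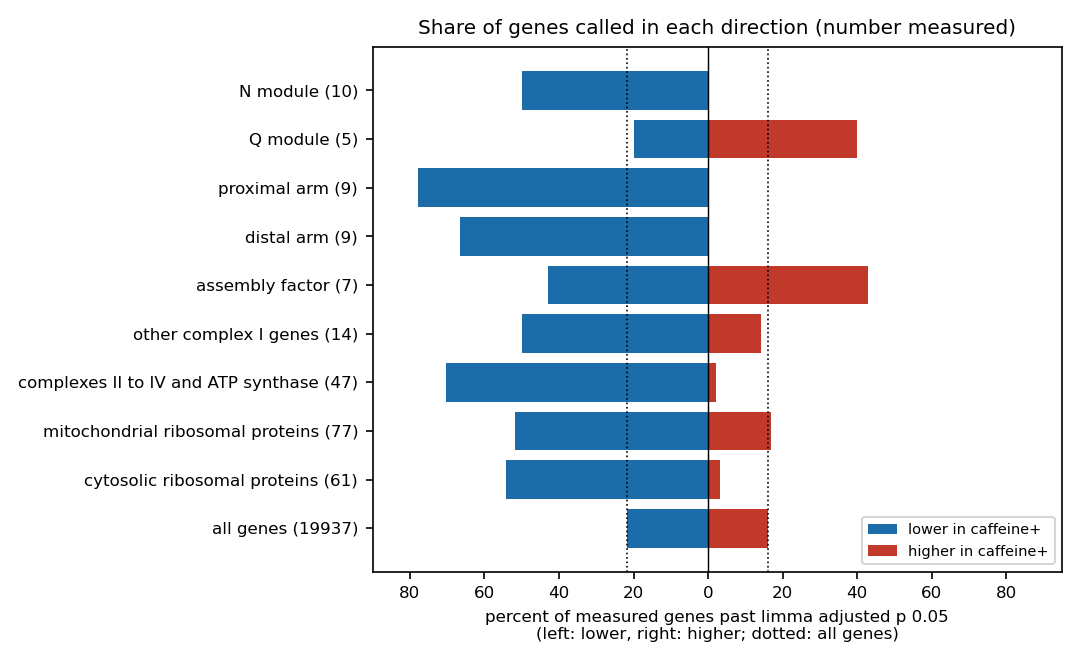
Percent of measured genes past limma adjusted p 0.05 in each role group and list, lower to the left and higher to the right, with dotted lines at the 21.7% and 16.2% of all genes. The proximal arm reaches 77.8% lower with none higher, and the assembly factors have 42.9% on each side.

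A property that the names do not use is the length of the gene. The genes that fell had a median genomic span of 6487 bases in RefSeq, against 10947 bases for those that rose and 13759 bases for those that did not pass. Across the 42 genes, span and difference had a Spearman rho of 0.535, and across the 35 genes named as subunits 0.449. Across 19918 genes with a span it was 0.185, and there too genes that fell had shorter spans than genes that rose (medians of 13761 and 36510 bases). These correlations run across genes measured on the same arrays, which are not independent replicates. Ndufa10 fell despite a span of 34340 bases, and the long genes Ndufaf2 and Ndufs4 did not pass.

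**Figure D5:**
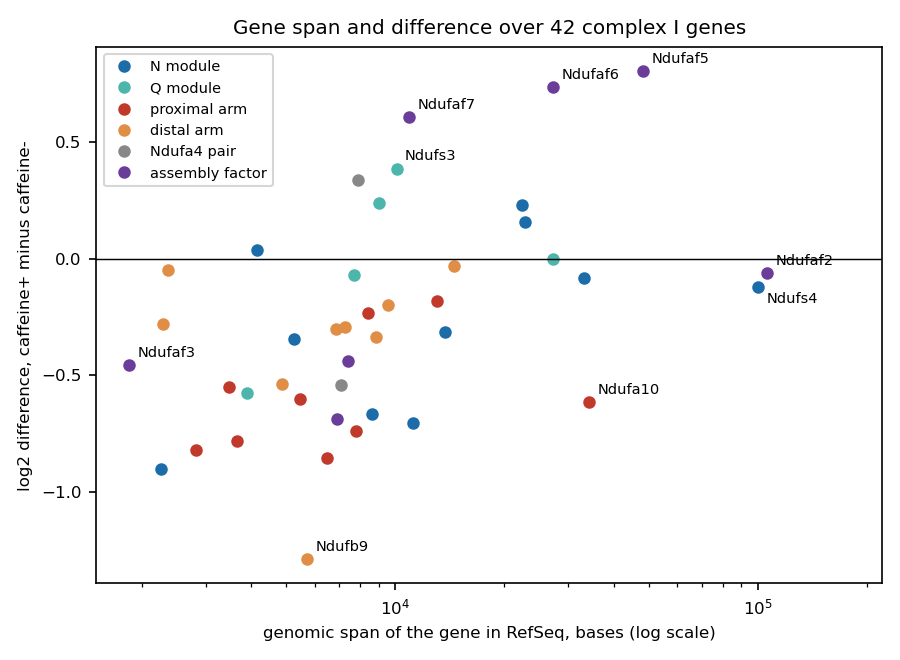
Log2 difference (caffeine+ minus caffeine-) against the genomic span of each of the 42 genes in bases on a log scale, coloured by role. Short genes lie mostly below 0, and the 3 assembly factors that rose have spans of 10947 to 48382 bases.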

How the data were processed

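The 6 Affymetrix Mouse Gene 1.0 ST arrays were hybridised with biotinylated cDNA made from 300 ng of total RNA, per the labels' protocols. The deposited table gives 1 value for each of 34760 probe sets per array. These were taken as log2 values normalized by the authors, from their range of 1.90 to 13.98. The method of summarising and scaling probes is, in the sources used here, not given, and no detection calls were used, so dim genes may understate a change.

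The supplied platform annotation gives 1 gene symbol to 21640 probe sets, several to 1321 and does not list 11799, and symbols were updated by gene identifier for 21553 against RefSeq (GRCm38.p6). A gene was read from its brightest probe set. The caffeine+ and caffeine- arrays were tested against each other by limma 3.58.1 in R 4.3.3 (eBayes with an intensity trend, two-sided, Benjamini-Hochberg adjustment). The same test was run on simulated arrays with independent errors and far fewer changed genes than were called here. That run cannot show how the test performs on these data. The number of arrays limits the precision. Errors after ± are standard errors of a difference or, where stated, SD. By rule, values on each array were given for the 3 largest called differences of each role, every rise and the smallest difference, differences for the core subunits and assembly factors, and up to 3 genes of smallest p in other lists. The other members, array values outside the rule and further complex I genes under other names were added after their values were seen. Marker lists are given by counts and list means, except that the 5 measured proliferation genes and the dimmest and brightest neutrophil markers are named. Members and lists were chosen with earlier results of these data known. Alternatives were the replicate block, normalization, centring, filters on dim genes, probe set choice, variance model, array weights and each array left out.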

Additional observations from a re-analysis of the deposited data

How the results depend on the processing

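Over 16 alternatives, 22 to 26 complex I genes were lower and 4 to 7 higher, against 23 and 5 as reported, and the counts over all genes stayed within 1.5 times. The extremes were 26 lower after quantile normalization and 7 higher with arrays centred on their medians or with the replicate block. With each array left out in turn, 22 to 25 were lower and 4 to 6 higher, the median of the subunits ran from -0.32 to -0.29, and that of the assembly factors from -0.12 to 0.0001. Among genes above the median level the assembly factors' median was -0.25, because Ndufaf6 is not among them. Of the values for single genes, 622 kept their direction and side of the threshold, 26 newly passed, 13 no longer passed and 9 changed sign. No gene that passed changed sign. With arrays centred on their medians Ndufa9 (0.058), Ndufb10 (0.012) and Ndufb5 (0.029) became positive. With each array left out, the difference ranged from -0.046 to 0.052 for Ndufa9, -0.10 to 0.017 for Ndufb10, -0.049 to 0.0060 for Ndufb5 and -0.014 to 0.078 for Ndufa6, and it reached 0.0001 for Ndufaf2 without caffeine- array 1. The lost calls were all those of Ndufa5 and Ndufb2.

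The replicate numbers were not taken to pair the arrays, since same-numbered arrays deviated together at r = -0.04, 0.10 and 0.21 for numbers 1 to 3, and not every array correlated best with its own number. With the replicate block 24 complex I genes were lower and 7 higher, and 4660 and 3388 over all genes against 4325 and 3229. With the block Ndufa12, Ndufa4l2 and Ndufb3 passed (limma adjusted p = 0.0248, 0.0345 and 0.0471).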

Other observations

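Probe sets that the annotation gives to a complex I gene together with a relative were left out of the comparisons. A probe set of Ndufb4 and Ndufb4b, subunit genes of the distal arm, had log2 values of 8.44, 8.45 and 8.40 in caffeine+ cells, against 9.25, 9.19 and 9.16 in caffeine- cells, a difference of -0.77 ± 0.06 in a fit of every probe set (limma adjusted p = 8.68e-05). A dimmer probe set of the same pair gave -0.68 ± 0.12. One shared by Ndufs5 and its pseudogene Ndufs5-ps gave -0.50 ± 0.10, beside -0.60 ± 0.08 for the probe set of Ndufs5 alone.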
